A study of Rattus norvegicus with 18 samples.

Results

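The genes described here are those that the deposited rat gene table files under the KEGG pathway term Lysosome. The table held 111 such rows among 18923 genes, and 104 of them passed a filter of 1 FPKM or more in no fewer than 3 of the 9 libraries. FPKM, fragments per kilobase of transcript corrected for library depth, is a level that can be compared between genes. The same filter left 11708 genes of the whole table, and every test was fitted on all of these.

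The tissue is the nucleus pulposus, the gel-like core of the disc between vertebrae, from rats of 2, 10 and 20 months, with 3 libraries per age. All were made from poly(A) RNA of whole tissue and carry no treatment or allele in the labels, which give no strain or sex. They are the input libraries of a study of N6-methyladenosine, a methyl mark on RNA, so that the values are RNA levels and not levels of the mark. The labels do not say whether the 3 libraries of an age came from separate animals or from pools, so that all p-values rest on the spread from library to library, which can be technical alone.

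Lysosomes are acidic compartments in which cells break down matrix fragments, membranes and worn organelles. Soluble hydrolases are tagged with mannose 6-phosphate in the Golgi, bound by sorting receptors, packed into clathrin-coated carriers by adaptor complexes and released where a proton pump has lowered the pH. Proteases, glycosidases, sulfatases and lipid hydrolases then share the work, and carriers in the membrane export the products. In the nucleus pulposus, whose matrix is rich in proteoglycans, the glycosidases and sulfatases cut the sugar chains of aggrecan and of hyaluronan that cells take up.

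The members fell into 7 classes and 1 row outside them. Of the rows that passed, 11 were cathepsins and other proteases, 17 glycosidases, 7 sulfatases with their activating enzyme, 11 lipid and other hydrolases or their activators, 20 membrane proteins and lipid carriers, 7 proton pump subunits, and 30 sorting receptors, tagging enzymes, adaptors and clathrin chains. Of the 104, 98 stood at 1 FPKM or more in all 9 libraries and 0 passed through the libraries of a single age. The highest was Cd164, which encodes the membrane sialomucin endolyn, at 1211 ± 22.9 FPKM at 2 months (SD, n = 3). Together the members held 1.18 to 1.54% of all FPKM in a library. Laptm5, a membrane protein of blood cell lysosomes, lay just outside the filter with 1.12, 1.09 and 0.975 FPKM at 2 months, 0.449, 0.276 and 0.499 at 10 and 0.237, 0.143 and 0.287 at 20. The adaptor gene Ap1s2 lay just inside it, with means of 1.03, 0.901 and 0.883 FPKM.

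The libraries held 3.53 to 5.04 gigabases of alignments, judged from the ratio of FPKM to read coverage, and 11027 to 11447 genes at 1 FPKM or more. The 20-month libraries stood apart from the other 6. Listed transcripts took 80.1 to 80.9% of their bases against 85.6 to 86.1%, ribosomal protein genes 20.4 to 21.0% of their FPKM against 13.98 to 16.6%, and mitochondrial genes 0.0868 to 0.111% against 0.456 to 0.690%. These features and age cannot be told apart in either comparison with 20 months, and the median gene was lower by 0.20 (20 against 2) and 0.23 (20 against 10) on the log2 scale. Each comparison is therefore also given after median-of-ratios scaling, which sets that median to about 0 (written "scaled" below). Of 13 nucleus pulposus markers 10 passed the filter, among them Krt19 at 5268, 3728 and 3336 FPKM, Tbxt at 2369, 2468 and 2184 and Acan at 1202, 871 and 1148, while Shh, Pax1 and Foxf1 stayed under 1 FPKM. By 10 months 7 of the 10 fell and 0 rose (median -0.44), with Col2a1 going from 304 to 113 FPKM, and by 20 months 7 fell and 1 rose (5 and 4 scaled). From 10 to 20 months 4 fell and 3 rose (1 and 7 scaled), with a median of -0.03 (0.23 scaled). The part of these marker changes in the lysosome falls was not tested.

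Lysosome genes were lower in older tissue, most of them by less than 2-fold. Between 2 and 10 months, 34 of the 104 members fell (32.7%) and 7 rose (6.73%), where 11.4% of all genes tested fell and 19.0% rose (30.3% either way). Between 2 and 20 months, 79 fell (76%) and 9 rose (8.65%), against 49.6% and 18.6% of all genes (68.2% either way). Between 10 and 20 months, 73 fell (70.2%) and 7 rose (6.73%), against 53.3% and 11.4% (64.7% either way). The median member changed by -0.09, -0.39 and -0.33 on the log2(FPKM + 1) scale in the 3 comparisons, and the median gene by 0.04, -0.20 and -0.23. Without 20-month replicate 1 or 2 the count of members that rose by 10 months was 13 or 11 in place of 7.

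Scaling moved the comparisons with 20 months more than that of 10 against 2 months. After it, 42 members fell and 6 rose by 10 months, with 14.5% and 15.1% of all genes. By 20 months 53 fell and 15 rose from 2 months (31.2% and 31.1% of all genes), and 39 fell and 18 rose from 10 months (25.7% and 26.8%). The scaled medians of the members were -0.12, -0.19 and -0.09. Of the calls on deposited values, 31 of 34 falls by 10 months, 53 of 79 from 2 to 20 months and 38 of 73 from 10 to 20 months were made in the same direction under all 3 other scalings tried, and 12 of those 73 had the opposite sign under at least 1 of them. For the rises these counts were 6 of 7, 8 of 9 and 7 of 7. Class counts below are to be read beside the shares of all genes given here and above.

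**Figure D1:**
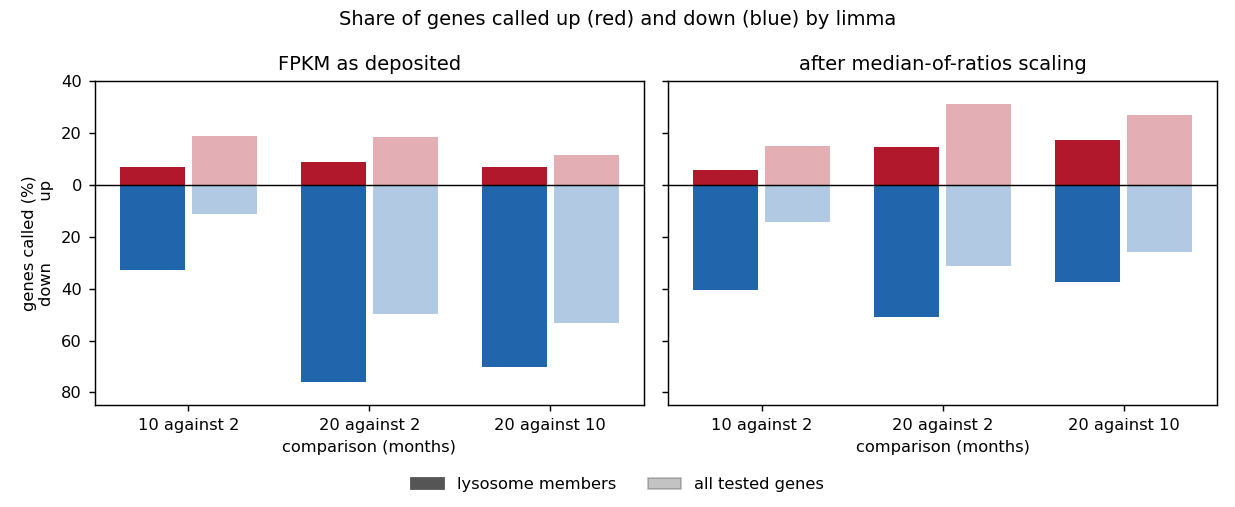
Share of genes called by limma at adjusted p under 0.05 in each comparison of ages (x axis), in percent of the genes tested, up above the 0 line and down below it, for the 104 lysosome members (dark) and all 11708 genes (pale). On deposited values 76% of members fell from 2 to 20 months against 49.6% of all genes, and after median-of-ratios scaling 51% against 31.2%.

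The sets of 3 libraries did not overlap for most members. At 10 months 55 members lay below all 2-month libraries and 20 above them (21.5% and 32.3% of all genes). At 20 months 80 lay below and 9 above the 2-month libraries (51.0% and 19.4%), and 74 below and 9 above those of 10 months (55.3% and 12.6%). The means of 60 members fell in order from 2 to 10 to 20 months, 30 were highest at 10 months, 9 lowest there, and 5 rose in order. An F test over the 3 ages called 92 of the 104 (88.5%, against 75.4% of all genes). Only 13 members stood at 50% of their 2-month level or lower at 20 months, and 0 had doubled. The 13 were Glb1, Neu1, Hyal1, Acp5, Pla2g15, Ctns, Abcb9, Sort1, Ap3m2, Nagpa, Ap1m2, Arsb and LOC100909548.

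**Figure D2:**
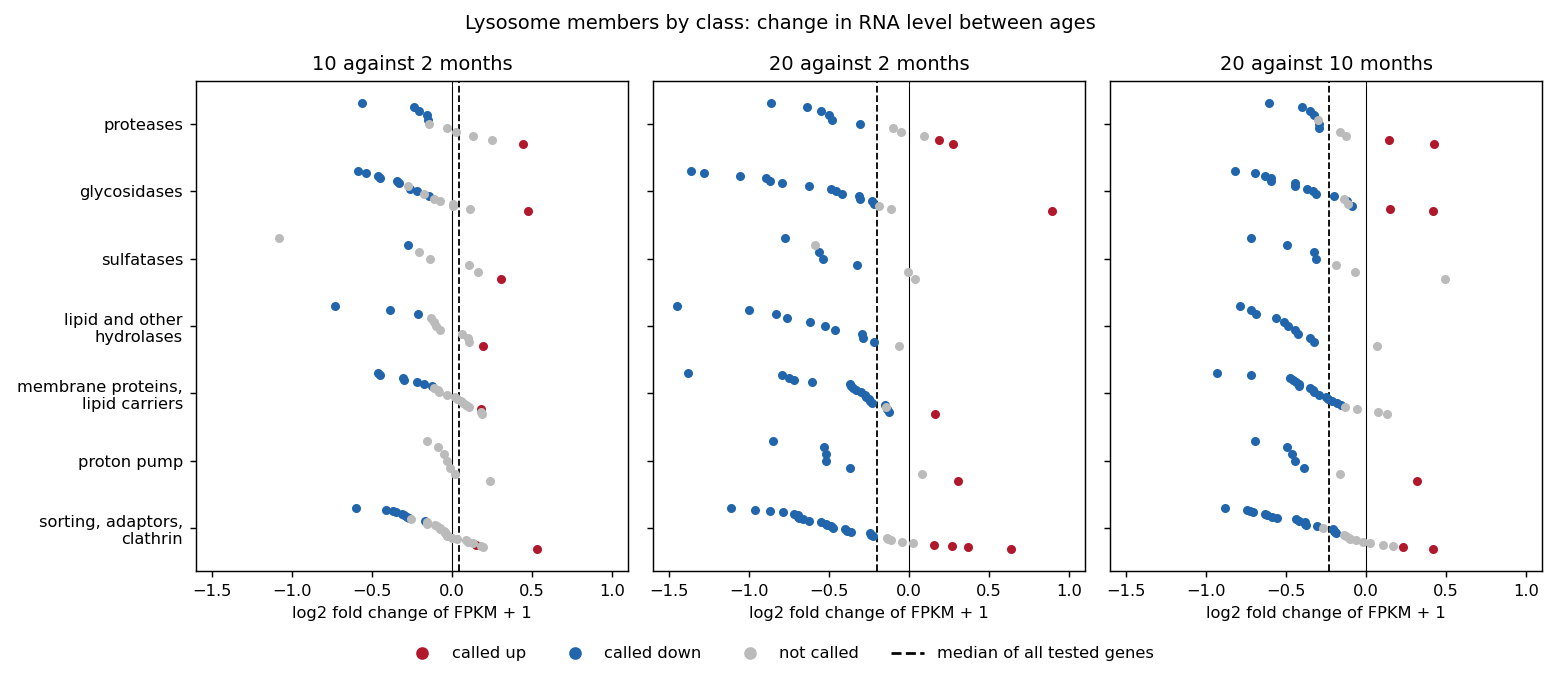
Log2 fold change of FPKM + 1 (x axis) of each classed member that passed the filter, by class (y axis), in the 3 comparisons of ages. Each point is 1 gene, coloured by its call, and the dashed line is the median of all 11708 genes tested (0.04, -0.20 and -0.23). In the middle panel most members lie left of 0, and Idua lies farthest right at 0.89.

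Many lysosome genes carry the CLEAR element, an E-box-like sequence bound by the transcription factor TFEB and its relatives. RefSeq promoter windows of 300 bases (250 before to 50 after the start, GRCr8) were at hand for 90 of the 110 member symbols, in 93 windows. TCACGTG, searched on both strands, was in 15 of the 93 windows (16.1%), against 3.2% of all 33469 windows and 5.73% of the 9053 windows of tested genes. The shorter CACGTG, which every TCACGTG contains, was in 18 (19.4%), against 6.42% and 9.67%. The sites below are examples from members whose RNA levels are described in the next paragraphs and that went in different directions. Further sites in the windows of Lamp1, Ctsd and Igf2r, and those of other members, are not printed. Each is printed 5′ to 3′ on the gene's own strand with 10 bases on either side, and the capitals mark the motif, including an eighth base where the match is a palindrome.

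Glb1, chr8:122963607-122963633, + strand: ggctccggagTCACGTGgcctgcagag
Idua, chr14:1190916-1190942, - strand: tggcgaatggTCACGTGgggcgttacc
Ctsd, chr1:206968815-206968842, - strand: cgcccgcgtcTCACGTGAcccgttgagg
Lamp1, chr16:83075112-83075139, - strand: gaccctcggcTCACGTGAccggcgggcg
Lamp1, chr16:83075085-83075112, - strand: gcggcactgtTCACGTGAcaggcgctgc
Atp6v0d1, chr19:50357284-50357311, - strand: cccattgtggTCACGTGAgatgcagtgc
Cd164, chr20:46606321-46606348, + strand: gccgggccgaTCACGTGAccgccgcgcg
Igf2r, chr1:50526742-50526769, + strand: aacgagaacgTCACGTGAcaggaggcgg
Sumf1, chr4:142716723-142716750, - strand: acacctcaggTCACGTGAcgccgtggat
Gga2, chr1:186016599-186016625, - strand: ccccgccctaTCACGTGcctctctgtg

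The 10 sites share the 7 motif letters. Those of Ctsd, Lamp1, Atp6v0d1, Cd164, Igf2r and Sumf1 also share the eighth base, A. In all of these but that of Atp6v0d1, a c follows. The other members with the motif were Cln3, Galc, Gaa, Gnptg, Mcoln1 and Nagpa. Of the 15 members with it, 12 fell and 2 rose from 2 to 20 months, with a median log2 change of -0.39. Of the 70 tested members with a window and no TCACGTG, 53 fell and 5 rose, with a median of -0.39 as well. By 10 months the counts were 6 down and 2 up (median -0.16) with the motif and 24 down and 5 up (-0.09) without it. The 2 that rose by 20 months were Idua and Gga2. A letter match is a description of the window and not a shown binding site.

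Among the proteases, cathepsins B and L were the highest at every age and went apart at 20 months. Ctsb, which encodes the cysteine protease cathepsin B, stood at 532, 526.6 and 537.9 FPKM at the age of 2 months, 522.7, 525 and 513.3 at 10 months and 357.7, 345 and 323.7 at 20 months. All 20-month libraries lay below the other 6, with a log2 change from 2 months of -0.64 ± 0.04 (SE, adjusted p = 1e-06, scaled -0.41), while 10 against 2 months gave -0.03 (adjusted p = 0.55). Ctsl, which encodes cathepsin L, a cysteine protease that also cuts matrix proteins outside the cell, read 591.7, 597.8 and 628.8 FPKM at 2 months, 513.2, 522.5 and 507.2 at 10 and 657.3, 737.5 and 677 at 20. It was lowest at 10 months and highest at 20, with no overlap between ages. Its fall by 10 months was -0.24 ± 0.04 (adjusted p = 0.0046) and its rise from 10 to 20 months 0.42 ± 0.04 (adjusted p = 5.1e-05), while 20 against 2 months gave 0.19 ± 0.04 (adjusted p = 0.005, scaled 0.42) and -0.09 under quantile normalization.

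Of the 11 proteases tested, Ctsb and Ctsl included, 5 fell and 1 rose by 10 months, 6 fell and 2 rose from 2 to 20 months (5 and 3 scaled), and 6 fell and 2 rose from 10 to 20 months (2 and 2 scaled). The counts from 2 to 20 months are near the shares of all genes (49.6% and 18.6%). Lgmn, which encodes legumain, the asparaginyl endopeptidase that matures several cathepsins, fell from 117.9, 112.4 and 117 FPKM to 76.45, 78.56 and 78.84 at 10 months and 70.25, 60.23 and 59.91 at 20. Its log2 change was -0.56 ± 0.06 by 10 months (adjusted p = 2e-04) and -0.86 ± 0.06 by 20 (adjusted p = 2.2e-06, scaled -0.63), and most of the fall was thus present at 10 months. Ctsa, Ctsd and Tpp1, which encode the carboxypeptidase that protects beta-galactosidase and neuraminidase, the aspartic cathepsin D and tripeptidyl peptidase 1, fell in all 3 comparisons on deposited values. Ctsd went from 76.6 ± 0.213 to 68.6 ± 0.544 and 54.6 ± 1.9 FPKM and Tpp1 from 49.2 ± 0.651 to 44.1 ± 0.397 and 33.3 ± 0.549.

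A few proteases went the other way or did not pass. Ctsc, which encodes the dipeptidyl peptidase that activates granule serine proteases, rose from 14.9 ± 0.536 to 20.7 ± 0.788 FPKM at 10 months (0.44 ± 0.07, adjusted p = 0.0022) and stood at 16.1 ± 1.88 at 20. Ctsf, a cysteine cathepsin, stood at 25.0 ± 0.620, 27.4 ± 1.08 and 30.3 ± 1.39 FPKM and rose from 2 to 20 months (0.27 ± 0.05, adjusted p = 0.00063). By 10 months its adjusted p was 0.062, and 0.0379 or 0.0442 without 20-month replicate 1 or 3. Its call from 10 to 20 months (adjusted p = 0.022) was lost without 10-month replicate 2 (0.0849) or 20-month replicate 3 (0.0617). Ctsk, the collagen-cutting cathepsin of osteoclasts, was near the filter with 1.18, 1.60 and 1.13 FPKM, and Ctsz stood at 4.47, 4.60 and 4.18 FPKM with adjusted p from 0.51 to 0.92. Without 20-month replicate 3, Ctsk had an adjusted p of 0.0405 for 20 against 10 months. Ctss, a cathepsin of antigen-presenting cells, was at or below 0.131 FPKM in every library.

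**Figure D3:**
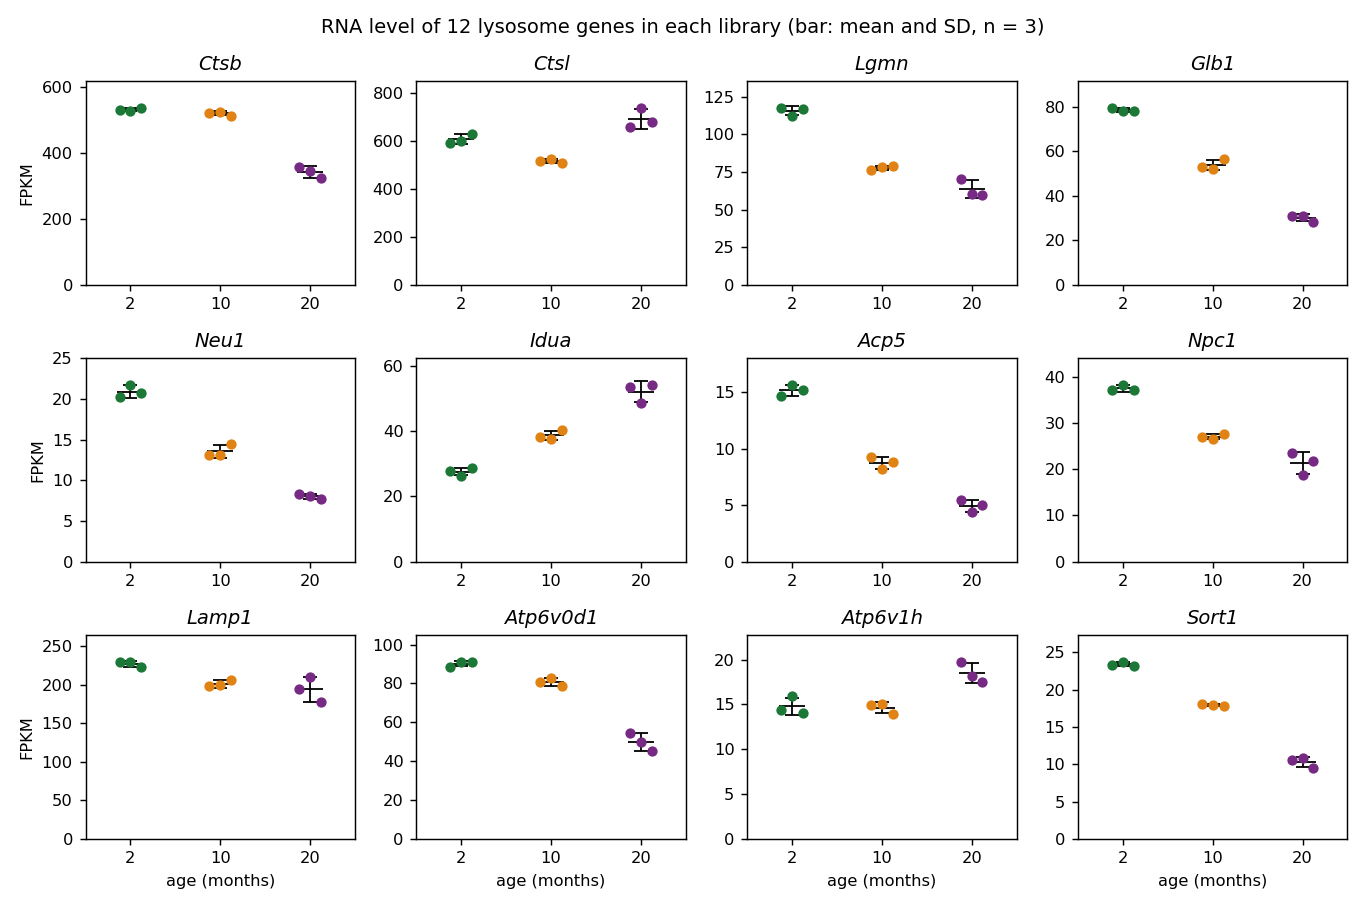
FPKM (y axis, from 0) of 12 lysosome genes in each library by age in months (x axis). Points are libraries, bars the mean and SD of 3. Glb1, Neu1, Acp5 and Sort1 step down at each age, Idua steps up from 27.6 to 38.7 to 52.1, Ctsb falls only at 20 months and Ctsl is lowest at 10 months.

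The glycosidases included the members with the clearest opposite directions. Glb1 encodes beta-galactosidase, which removes galactose from keratan sulfate and gangliosides and whose activity is widely used as a stain for senescent cells. It measured 79.76, 78.26 and 78.03 FPKM at 2 months, 53.15, 52 and 56.38 at 10 months and 31.05, 30.95 and 28.33 at 20 months. The 3 ages did not overlap, with log2 changes of -0.54 ± 0.05 by 10 months (adjusted p = 6.9e-05), -1.36 ± 0.05 by 20 months (adjusted p = 6.3e-08, scaled -1.13) and -0.82 ± 0.05 between 10 and 20 (adjusted p = 1.9e-06). Neu1, which encodes the sialidase that sits in 1 complex with beta-galactosidase and the Ctsa product, fell in steps too, from 20.2, 21.75 and 20.71 to 13.12, 13.15 and 14.51 and then 8.29, 8.11 and 7.68 FPKM. Its 20-month change was -1.28 ± 0.05 (adjusted p = 1.8e-07, scaled -1.07). Of the 3 genes of this complex, Ctsa changed least, from 136 ± 2.08 to 95.7 ± 2.99 FPKM by 20 months (-0.50 ± 0.03, scaled -0.27).

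Idua encodes alpha-L-iduronidase, which takes iduronic acid off dermatan and heparan sulfate. It measured 27.78, 26.42 and 28.63 FPKM at 2 months, 38.19, 37.62 and 40.33 at 10 months and 53.6, 48.53 and 54.29 at 20 months. Each age lay above the one before it with no overlap, and its rise of 0.47 ± 0.05 (adjusted p = 0.00029), 0.89 ± 0.05 (adjusted p = 1.1e-06, scaled 1.12) and 0.42 ± 0.05 (adjusted p = 0.00013) made it the sole glycosidase called up in the first 2 of these comparisons. Slc26a1, which lies across Idua on the other strand, stood at 0.203, 0.170 and 0.118 FPKM.

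Of the 17 glycosidases 9 fell by 10 months, 14 from 2 to 20 months (10 scaled) and 13 from 10 to 20 months (6 scaled). The rises were 1, 1 and 2 (1, 1 and 4 scaled). Their median log2 changes were -0.22, -0.46 and -0.33. Gla, the alpha-galactosidase gene, fell from 16.6 ± 0.687 to 11.9 ± 0.322 and 8.59 ± 1.48 FPKM. Naglu, which acts on heparan sulfate, stood at 13.8 ± 0.788, 11.2 ± 1.05 and 7.13 ± 0.952 FPKM and fell by 20 months (-0.87 ± 0.09, adjusted p = 3.6e-05). Hyal1, a hyaluronidase gene, was low and fell from 3.57 ± 0.540 to 2.30 ± 0.173 and 1.19 ± 0.122 FPKM. The smallest 20-month falls among the called were those of Gusb (7.53 to 6.35 FPKM, adjusted p = 0.034, scaled -0.02) and Hexa (53.8 to 45.7 FPKM, adjusted p = 0.00018, scaled -0.01). The call of Gusb was lost without 2-month replicate 2 or 3 or 20-month replicate 1 or 2 (adjusted p = 0.11, 0.0913, 0.0802 and 0.108). Aga fell by 10 months (25.7 to 21.3 FPKM, adjusted p = 0.0037) and then rose to 23.7 (adjusted p = 0.022, and 0.0875 without 10-month replicate 2).

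The acid alpha-glucosidase gene Gaa, whose enzyme cuts glycogen, passed from 2 to 20 months and not from 2 to 10. It read 16.6 ± 0.805, 14.6 ± 0.854 and 13.2 ± 1.09 FPKM (20 against 2 months, -0.31 ± 0.07, adjusted p = 0.0028), and its scaled change of -0.10 did not pass. Without 20-month replicate 1 its adjusted p for 10 against 2 months was 0.0367, against 0.081 with all libraries.

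The sulfatases, which strip sulfate from the same sugar chains, were a small class. Of 7 rows 1 rose and 1 fell by 10 months, and 4 fell and 0 rose by 20 months from either age. Scaled, 2 fell and 2 rose from 2 months, and 2 fell and 1 rose from 10. Sumf1, which encodes the enzyme that activates all sulfatases, was highest at 10 months, with 18.4, 17.89 and 18.37 FPKM at 2 months, 23.67, 23.37 and 21.38 at 10 and 17.3, 19.55 and 17.62 at 20. It rose by 10 months (0.31 ± 0.06, adjusted p = 0.0037) and fell back by 20 (-0.31 ± 0.06, adjusted p = 0.001, scaled -0.06 and not called). Arsb, which removes sulfate from dermatan and chondroitin sulfate, fell from 3.62 ± 0.128 to 2.81 ± 0.208 and 1.71 ± 0.152 FPKM. Galns, which acts on keratan sulfate and chondroitin 6-sulfate, stood at 3.26 ± 0.122, 2.69 ± 0.185 and 1.94 ± 0.205 FPKM (20 against 2 months, -0.53 ± 0.07, adjusted p = 2e-04). Its adjusted p for 10 against 2 months was 0.064, and 0.0479 or 0.0427 without 20-month replicate 1 or 2.

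More hydrolases of lipids and phosphates fell between 10 and 20 months than by 10 months, as did more of all genes. Of 11 tested, 3 fell and 1 rose by 10 months, while 10 fell and 0 rose from 2 to 20 months (7 and 0 scaled) and from 10 to 20 months (8 and 1 scaled). The acid ceramidase gene Asah1 measured 228.6, 231.9 and 227 FPKM at 2 months, 220.1, 215.8 and 206.1 at 10 and 157.6, 166.5 and 152.6 at 20 (20 against 2 months, -0.53 ± 0.04, adjusted p = 3.8e-06, scaled -0.30). Its 2- and 10-month levels lay close together (adjusted p = 0.086, and 0.0472 without 20-month replicate 2), and all 20-month values lay below them. Psap, which encodes the precursor of the saposins that help sphingolipid hydrolases, stood at 229 ± 3.997, 239 ± 3.95 and 187 ± 7.46 FPKM (20 against 2 months, adjusted p = 7.8e-05, scaled -0.06 and not called). Pla2g15, a lysosomal phospholipase gene, stood at 5.74 ± 0.322, 4.82 ± 0.331 and 2.37 ± 0.0311 FPKM (20 against 2 months, -1.0 ± 0.06, adjusted p = 1.6e-06). Lipa, the acid lipase gene that frees cholesterol from its esters, read 16.1 ± 0.644, 17.3 ± 0.552 and 11.5 ± 1.63 FPKM, and fell from 10 to 20 months (-0.56 ± 0.09, adjusted p = 0.00041).

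Acp5 and Acp2, the 2 acid phosphatase genes of the term, fell at both steps. Acp5, which encodes the tartrate-resistant enzyme known from osteoclasts and macrophages, read 14.66, 15.64 and 15.19 FPKM at 2 months, 9.21, 8.20 and 8.79 at 10 and 5.465, 4.38 and 4.97 at 20, with no overlap. Its log2 change was -0.73 ± 0.07 by 10 months (adjusted p = 0.00016) and -1.45 ± 0.07 by 20 (adjusted p = 4.7e-07, scaled -1.25), the lowest 20-month change of the 104 members. Acp2 went from 26.2 ± 1.07 to 19.8 ± 0.340 and 14.4 ± 1.60 FPKM. Gm2a, the GM2 ganglioside activator gene, was the riser of the class by 10 months, from 79.2 ± 2.11 to 90.8 ± 1.24 FPKM (adjusted p = 0.024), and fell to 64.5 ± 5.19 at 20. Its rise was lost without 10-month replicate 1, 2 or 3 or 2-month replicate 1 or 3, with adjusted p from 0.0572 to 0.0763.

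Markers of the cells that Acp5 and other members are best known from were looked at beside these values. Of 7 osteoclast markers in the table only Acp5 and Ctsk passed the filter, Dcstamp was at 0 in all libraries but 1, Atp6v0d2 was at 0 in all libraries of 2 and 10 months, and Mmp9 was at 0 at 10 and 20 months. Their summed FPKM, mostly Acp5 itself, was 16.5 to 17.1 at 2 months, 9.94 to 11.3 at 10 and 5.19 to 6.97 at 20. Tnfrsf11a, the receptor that drives osteoclast formation, stood at 0.397, 0.0643 and 0.0409 FPKM. Of 10 macrophage markers 3 passed, and Ptprc, Cd163, Adgre1 and the 3 C1q genes were each at 0 or close to it, at most 0.143 FPKM in a library. The summed level of the macrophage list was higher at the later ages, with 15.8 to 17.4 FPKM at 2 months, 19.9 to 20.7 at 10 and 20.9 to 21.4 at 20. Csf1r, at 7.04, 11.997 and 11.3 FPKM, carried the step between 2 and 10 months. Of the 3 macrophage markers that passed, 1 rose by 10 months, 2 from 2 to 20 months and 0 from 10 to 20 months. Scaled, the rises were 1, 2 and 2, and 0 fell either way. Cd14 stood at 8.03, 6.50 and 7.45, Mrc1 at 0.168, 0.125 and 0.0552, and the list's genes at 0 in all 3 libraries of an age numbered 1, 4 and 6. The macrophage lysosome gene Cd68 stood at 4.32 ± 0.254, 4.23 ± 0.540 and 2.23 ± 0.771 FPKM and fell by 20 months (-0.75 ± 0.16, adjusted p = 0.0028). Red blood cell markers summed to 82.9 to 93.2 FPKM at 2 months, 9.57 to 10.6 at 10 and 36.6 to 42.5 at 20, and all 4 that passed fell by 10 months and rose from 10 to 20. In whole tissue, fewer cells of a type and less RNA per cell cannot be told apart, and the part of cell makeup in any change was not tested. Skeletal muscle markers summed to 202 FPKM in a single 20-month library and to 3.75 and 3.87 in the other 2. Without that library, replicate 3, 79 members fell and 8 rose from 2 to 20 months.

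Membrane proteins of the lysosome had median log2 changes of -0.06, -0.29 and -0.31 in the 3 comparisons. Of 20 tested, 7 fell and 1 rose by 10 months, 18 fell and 1 rose from 2 to 20 months (7 and 1 scaled), and 16 fell and 0 rose from 10 to 20 months (5 and 3 scaled). The scaled falls in the 2 comparisons with 20 months are near the shares of all genes, 31.2% and 25.7%. The abundant ones belonged to those whose calls depended on scaling. Lamp1, which encodes the main glycoprotein lining the membrane, read 228.9, 229.6 and 222.6 FPKM at 2 months, 197.6, 198.9 and 206.4 at 10 and 194.5, 209.9 and 177 at 20. Its 2-month libraries lay above the rest, but the scaled change by 20 months was -0.00 (deposited -0.23 ± 0.06, adjusted p = 0.0048). Its call by 10 months (adjusted p = 0.041) was lost without any of the 6 libraries compared (adjusted p = 0.0633 to 0.115). Lamp2 stood at 107 ± 1.70, 97.9 ± 2.00 and 82.8 ± 2.12 FPKM (20 against 2 months, -0.36 ± 0.03, adjusted p = 9.6e-06, scaled -0.14). Cd164 and the tetraspanin gene Cd63 fell by 20 months from 1211 to 964 and from 294 to 239 FPKM, by 0.33 and 0.30 on the log2 scale. Scaled, these changes were -0.10 and -0.07, and only that of Cd164 passed.

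Some lipid and amino acid carriers of the membrane were among the members of the class with the larger changes. Npc1, which with the soluble Npc2 moves cholesterol out of the lysosome, fell from 37.15, 38.29 and 37.04 FPKM to 26.97, 26.45 and 27.52 at 10 months and 23.48, 18.77 and 21.73 at 20. The ages did not overlap, with log2 changes of -0.46 ± 0.07 (adjusted p = 0.0013) and -0.79 ± 0.07 (adjusted p = 1e-05, scaled -0.57) from 2 months. Npc2 itself read 56.7 ± 2.06, 48.5 ± 0.183 and 51.3 ± 4.81 FPKM. Its call by 10 months (adjusted p = 0.0247) was lost without 2-month replicate 1 or 3 or any 10-month library (adjusted p from 0.0642 to 0.0787). Its adjusted p was 0.057 for 20 against 2 months (0.00366 without 20-month replicate 1) and 0.31 for 20 against 10 (0.0347 without 20-month replicate 3), and scaling turned the first change from -0.15 to 0.08 and took the other from 0.07 to 0.34, which passed. Ctns, the cystine exporter gene, had the largest 20-month fall of the class, from 4.63, 4.17 and 4.46 to 1.17, 0.964 and 1.12 FPKM (-1.38 ± 0.08, adjusted p = 1e-06, scaled -1.24). Cln3 fell from 12.9 ± 0.699 to 10.2 ± 1.0 and 8.11 ± 0.183 FPKM. Mcoln1, the calcium channel gene of the lysosome, stood at 11.9 ± 0.787, 12.9 ± 0.263 and 9.07 ± 1.27 FPKM (20 against 2 months, adjusted p = 0.0052, scaled -0.16 and not called).

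The 2 risers of the class were small. Laptm4a, a transmembrane protein gene, rose from 258 ± 2.26 to 292 ± 8.14 FPKM by 10 months (0.18 ± 0.03, adjusted p = 0.0037) and stood at 233 ± 6.84 at 20, below its 2-month level as deposited (-0.15, adjusted p = 0.003) and above it scaled (0.08). Its relative Laptm4b stood at 19.1 ± 0.506, 19.5 ± 1.11 and 21.5 ± 1.78 FPKM. Its call from 2 to 20 months (adjusted p = 0.048) was lost without 7 of the 9 libraries in turn, all but 10-month replicate 1 and 20-month replicate 3, with adjusted p from 0.0543 to 0.153. Without 20-month replicate 3 it was also called from 10 to 20 months (adjusted p = 0.0153).

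The proton pump (V-ATPase) is built of a membrane sector, V0, that passes protons, and a cytosolic sector, V1, that burns ATP. The KEGG term lists mostly V0 subunits, and of the 7 that passed, 0 were called at 10 months (2 fell scaled). By 20 months 5 fell and 1 rose from 2 months, and 5 fell and 1 rose from 10 months. Scaled, the falls were again 5 and 5 and the rises 2 and 1. Atp6v0d1, the subunit that joins the rotor to V1, read 88.64, 91.18 and 90.98 FPKM at 2 months, 81, 82.99 and 78.57 at 10 and 54.43, 49.78 and 45.09 at 20 (20 against 2 months, -0.85 ± 0.06, adjusted p = 2.9e-06, scaled -0.62). Its 10-month libraries also lay below those of 2 months, with an adjusted p of 0.077 that was 0.0207 or 0.0165 without 20-month replicate 1 or 3. Atp6v0c, which forms the proton-carrying ring, stood at 314 ± 11.6, 296 ± 0.528 and 217 ± 3.36 FPKM, and the accessory subunit gene Atp6ap1 at 147 ± 6.23, 144 ± 1.66 and 102 ± 2.45. Both fell by 20 months (-0.53 ± 0.03 and -0.52 ± 0.04).

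Atp6v1h, the regulatory V1 subunit that couples the sectors, was the pump member that rose as deposited. It read 14.42, 15.89 and 14.08 FPKM at 2 months, 14.93, 15.04 and 13.89 at 10 and 19.75, 18.22 and 17.51 at 20. The first 2 ages overlapped and all 20-month libraries lay above them (20 against 2 months, 0.30 ± 0.06, adjusted p = 0.0019, scaled 0.52). Tcirg1, the V0 subunit known from osteoclasts, stood at 8.68 ± 0.533, 10.4 ± 0.203 and 9.28 ± 1.43 FPKM and did not pass in any comparison as deposited. Scaled, Tcirg1 was called up from 2 to 20 months, as was Atp6v1h. As deposited, the adjusted p of Tcirg1 for 10 against 2 months, 0.083, was 0.0348 or 0.0181 without 20-month replicate 1 or 2. It was 0.0361 for 20 against 2 months without replicate 2 and 0.0235 for 20 against 10 months without replicate 1. The kidney and osteoclast forms Atp6v0a4 and Atp6v0d2 did not exceed 0.192 FPKM in any library.

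Pump subunits that the term does not list, mainly of V1, were read from a list of their own. Of 12 tested 4 fell by 10 months, 8 fell and 2 rose from 2 to 20 months, and 8 fell and 0 rose from 10 to 20 months. Scaled, 7 fell and 4 rose from 2 to 20 months, and 4 fell and 4 rose from 10 to 20. Atp6v1b2 and Atp6v1a, the subunits that bind ATP, fell from 119 ± 3.13 to 93.5 ± 2.73 and 68.1 ± 3.43 FPKM and, by 20 months, from 80.9 ± 2.08 to 49.9 ± 2.03 FPKM (-0.80 ± 0.04 and -0.69 ± 0.04, scaled -0.57 and -0.46).

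Sorting genes, the largest class with 30 tested, held falls and rises within the same machinery. By 10 months 9 fell and 2 rose, from 2 to 20 months 21 fell and 4 rose (16 and 6 scaled), and from 10 to 20 months 18 fell and 2 rose (10 and 6 scaled). From 10 to 20 months 53.3% of all genes fell and 11.4% rose (25.7% and 26.8% scaled). The median of the class in this step, -0.24, was near that of all genes, -0.23. Sort1, which encodes sortilin, a receptor that carries prosaposin and other cargo to lysosomes without the mannose tag, read 23.36, 23.74 and 23.22 FPKM at 2 months, 18.09, 17.95 and 17.77 at 10 and 10.61, 10.85 and 9.54 at 20. It stepped down without overlap, with log2 changes of -0.37 ± 0.05 (adjusted p = 0.00066) and -1.11 ± 0.05 (adjusted p = 2.2e-07, scaled -0.90) from 2 months. Igf2r, the large mannose 6-phosphate receptor gene, fell from 9.95 ± 0.480 to 7.24 ± 0.115 by 10 months and 5.70 ± 0.957 FPKM by 20 (-0.72 ± 0.10 from 2 months, adjusted p = 0.00015, scaled -0.52). M6pr, the small receptor gene, fell from 68.5 ± 1.76 to 56.9 ± 4.32 and 42.3 ± 2.18 FPKM. LOC100909548 is listed as a close copy of it, so that reads may have been divided between them, and their sum was 148 ± 2.71, 128 ± 5.89 and 81.8 ± 1.07 FPKM.

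The genes of the enzymes that make the mannose tag differed in when they fell. Gnptab, the catalytic subunit gene of the phosphotransferase, read 10.02, 9.989 and 9.937 FPKM at 2 months, 9.713, 9.593 and 9.895 at 10 and 6.161, 6.102 and 6.128 at 20. The 20-month libraries were close to each other and far below the rest (-0.62 ± 0.04 from 2 months, adjusted p = 1.5e-06, scaled -0.42), and 10 against 2 months gave -0.03 (adjusted p = 0.56). Nagpa, which uncovers the tag, stood at 2.13 ± 0.229, 2.19 ± 0.0195 and 0.952 ± 0.330 FPKM and fell by 20 months (-0.69 ± 0.12, adjusted p = 8e-04). Gnptg, the gamma subunit gene of the phosphotransferase, read 9.07 ± 0.700, 7.30 ± 0.552 and 6.71 ± 0.528 FPKM and fell by 10 months (-0.28 ± 0.08, adjusted p = 0.0247), a call lost without 2-month replicate 1 or 2 or 10-month replicate 2 or 3 (adjusted p = 0.0892, 0.0654, 0.0505 and 0.084). Its 20-month level was below that of 2 months (adjusted p = 0.0018, scaled -0.18 and not called), with an adjusted p of 0.25 against 10 months.

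Clathrin chains parted at 20 months. Cltc, the heavy chain gene, read 103.9, 102.2 and 104.2 FPKM at 2 months, 102, 100.5 and 98.95 at 10 and 68.88, 62.88 and 63.73 at 20 (20 against 2 months, -0.66 ± 0.04, adjusted p = 9.7e-07, scaled -0.43). Clta, the gene of light chain A, read 159.4, 158.3 and 160.6, then 158.2, 154.9 and 149.2, then 206.4, 213.4 and 199.2 FPKM (20 against 2 months, 0.37 ± 0.03, adjusted p = 1.5e-05, scaled 0.60). The first 2 ages lay close for both, and the 20-month libraries were all lower for the heavy chain and all higher for light chain A. Cltb, the gene of light chain B, fell instead, from 103 ± 1.26 to 82.7 ± 0.597 and 71.4 ± 1.58 FPKM (20 against 2 months, -0.52 ± 0.03, scaled -0.29), though scaling turned its step from 10 to 20 months from -0.21 to 0.06.

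Adaptor subunits also went both ways. In the AP-3 complex, which routes membrane proteins to lysosomes, the medium chain genes Ap3m1 and Ap3m2 fell by 20 months from 15.8 ± 0.906 to 8.77 ± 0.761 and from 8.37 ± 0.470 to 3.88 ± 0.926 FPKM. Ap3b2, known as the neuronal large chain, was the highest adaptor gene with 139 ± 0.948, 147 ± 2.47 and 141 ± 9.62 FPKM and passed in no comparison as deposited. Scaled, its 20-month values were 0.25 and 0.20 above 2 and 10 months on the log2 scale, and both passed. Without 20-month replicate 1 its adjusted p was 0.0406 for 10 against 2 months (0.09) and 0.01 for 20 against 10 months (-0.12). Ap1g2, a large chain gene of AP-1, rose from 1.899, 2.08 and 2.22 FPKM to 3.49, 3.50 and 3.31 at 10 months (0.53 ± 0.06, adjusted p = 0.00037) and read 3.80, 3.76 and 3.73 at 20. Ap1m2, the epithelial medium chain gene of the same complex, fell from 1.86 ± 0.157 to 0.895 ± 0.206 FPKM by 10 months. Gga2, a monomeric adaptor gene, stood at 6.94 ± 0.227, 6.55 ± 0.590 and 7.83 ± 0.0652 FPKM and rose from 10 to 20 months (0.23 ± 0.06, adjusted p = 0.0093). Its call from 2 to 20 months (adjusted p = 0.048) was lost without 7 of the 9 libraries in turn, all but 10-month replicates 2 and 3, with adjusted p from 0.0604 to 0.131.

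A ratio of 2 members within a library does not depend on any single factor that scales the whole library, though quantile normalization, for which no ratio was computed, can change it. The 4 pairs here were chosen after their values were seen, so no test is given. Ctsl over Ctsb was 1.11, 1.14 and 1.17 at 2 months, 0.982, 0.995 and 0.988 at 10 and 1.84, 2.14 and 2.09 at 20. Idua over Glb1 was higher at each later age, with means of 0.351 ± 0.0148, 0.719 ± 0.00411 and 1.74 ± 0.174, from Glb1 the higher gene at 2 months to Idua the higher at 20. Atp6v1h over Atp6v0d1 went from 0.164 ± 0.00981 and 0.181 ± 0.00376 to 0.372 ± 0.0139, and Clta over Cltc from 1.54 ± 0.00807 and 1.53 ± 0.0229 to 3.17 ± 0.203. In all 4 pairs every 20-month library lay above all others.

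**Figure D4:**
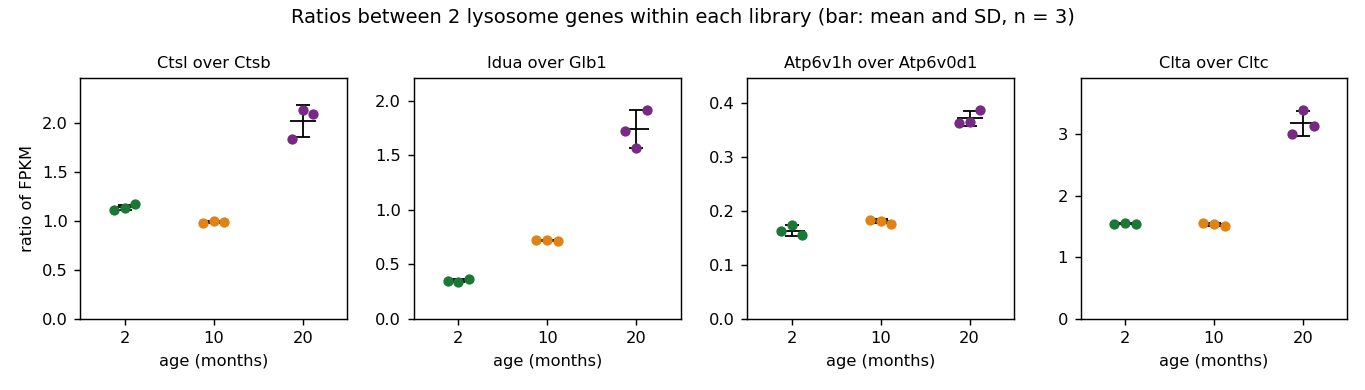
Ratio of the FPKM of 2 lysosome genes within each library (y axis, from 0) by age in months (x axis). Points are libraries, bars the mean and SD of 3. In each of the 4 panels the 20-month libraries lie above all others, and Idua over Glb1 also parts 2 from 10 months (0.351 and 0.719).

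Genes that govern lysosome number and sit on its surface were read from a list of their own: the MiT/TFE transcription factors, which bind the CLEAR element, and the Rag and Ragulator platform that recruits the growth kinase mTORC1. Of 16 tested 3 fell and 2 rose by 10 months, 10 fell and 3 rose from 2 to 20 months (9 and 4 scaled), and 10 fell and 2 rose from 10 to 20 months (7 and 3 scaled). The factors differed among themselves. Tfeb stood at 5.79 ± 0.353, 5.18 ± 0.460 and 3.83 ± 0.151 FPKM and Tfe3 at 13.3 ± 0.361, 12.6 ± 0.169 and 8.17 ± 0.828, both lower by 20 months (-0.49 ± 0.07 and -0.64 ± 0.06, adjusted p = 0.00022 and 2.1e-05, scaled -0.30 and -0.43). Mitf rose from 12.8 ± 0.489 to 17.9 ± 0.203 FPKM by 10 months (0.46 ± 0.06, adjusted p = 0.00045) and stood at 16.2 ± 1.20 at 20 (0.32 ± 0.06, adjusted p = 0.00075, scaled 0.54). Flcn and Fnip2, whose products control the Rag proteins, fell by 20 months from 13.4 ± 0.161 to 5.73 ± 0.420 and from 9.66 ± 0.450 to 4.09 ± 0.406 FPKM. The Rag genes went apart. Rraga rose from 19.5 ± 0.857 to 30.0 ± 0.895 FPKM by 20 months (0.60 ± 0.04, adjusted p = 4e-06, scaled 0.82). Rragc fell from 39.0 ± 0.123 to 29.2 ± 1.89 (-0.41 ± 0.05, adjusted p = 4.6e-05, scaled -0.18).

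Of the 3 cathepsin inhibitor genes tested, Cstb fell from 115 ± 4.50 to 91.5 ± 5.08 FPKM by 10 months and to 82.2 ± 8.22 by 20. Cst6 stood at 5.50 ± 1.12, 3.77 ± 0.297 and 1.36 ± 0.444 FPKM (20 against 2 months, -1.47 ± 0.16, adjusted p = 4.1e-05). Cst3, the secreted cystatin C gene, stood at 173 ± 2.51, 163 ± 1.82 and 171 ± 23.9 FPKM. Its 20-month change was -0.02 as deposited (adjusted p = 0.82) and 0.21 scaled, where it passed.

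An F test over the 3 ages called no change of isoform use among the members. Of the 111 rows 85 had a single isoform in the deposited transcript table, and 20 isoforms of 11 members could be tested. Of these, limma's F test called 0 (5 at an unadjusted p under 0.05), against 8.28% of the 2765 isoforms tested in all. For 20 against 2 months alone, 10.8% of all isoforms passed, and so did the 2 isoforms of the adaptor gene Gga3 (adjusted p = 0.0424 and 0.0454). They make up the whole of the gene's FPKM, so that both tests read 1 ratio from opposite sides. The shorter of them went from 35.3 ± 1.86% of that FPKM to 23.5 ± 4.41%. The call of Gga3 was lost without any of the 9 libraries (adjusted p from 0.0531 to 0.131) and with the replicate numbers as a block (0.0874 and 0.0926). Reads of overlapping genes cannot be told apart where strand was not used, which the sources do not state, and 13 members overlap a gene with a mean of at least 1 FPKM. An example is Ppt2, a thioesterase gene at 11.1, 10.47 and 6.13 FPKM, which lies across Prrt1 on the other strand at 37.7, 36.3 and 20.9. Another is Gga3, which overlaps Mrps7 on the other strand at 15.1, 16.7 and 14.2 FPKM.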

How the data were processed

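Per the file headers, the authors deposited FPKM for each gene and library, and for each transcript FPKM beside its coverage, a signal in reads per base with no scaling for depth. As tools, with no role given, the submitters' processing notes list StringTie 1.3.4d, HISAT2 2.0.4, cutadapt 1.9, edgeR and DESeq2. No source used here gives the genome build. Of 18 libraries in the labels, the 9 input libraries were analysed. The filter kept genes at 1 FPKM or more in 3 or more libraries. Values on the log2(FPKM + 1) scale were fitted with limma (version 3.58.1, R 4.3.3, empirical Bayes, trend), all 9 libraries in 1 fit, and a call is an adjusted p (Benjamini-Hochberg over all 11708 genes) under 0.05. All adjusted p-values come from this fit, fold changes are on that scale, which understates changes of low genes, and the fit was tested on simulated data. Isoform use was tested in a fit of its own, on the log2 ratio of an isoform to the gene's other isoforms. It was adjusted over the 2765 isoforms tested. This was done over the 3 ages and, added after the data were seen, for 20 against 2 months. Depth was taken from FPKM over coverage, since the tables give no counts. Other scalings were median of ratios, quantile normalization and a fixed sum without ribosomal and mitochondrial genes.

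The members and lists were chosen with earlier results of these data known. Named members are, per class and comparison, up to 3 called per direction with the largest change and a mean FPKM of at least 5 in the higher group, the 2 highest of each class, 37 listed well-known genes and up to 3 called genes of each other list and comparison. Some were left out as less telling, and some items are not reported here. Ap1s2, Hyal1, Ctns, Abcb9, Nagpa, Ap1m2, Arsb, Cltb, Ap1g2, Atp6v0a4, Gga3, Tfeb, Tfe3, Cst3, Gnptg and the overlapping genes were named after their values were seen. Same-numbered libraries of different ages did not deviate together (r from -0.04 to 0.0491 over 9 pairs), and the numbers were not used as pairs in the main fit. With 3 libraries per age, this cannot show that same-numbered libraries were handled apart.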

Additional observations from a re-analysis of the deposited data

How the results depend on the processing

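The count of members that rose by 10 months, 7 with all libraries, was 13 with array weights, 12 with a fixed sum without ribosomal and mitochondrial genes and 13 with only the 2 ages compared in the fit. The rises from 2 to 20 months, 9 as deposited, were 15 after median-of-ratios scaling. The rises from 10 to 20 months, 7 as deposited, were 18 after median-of-ratios scaling and 13 after quantile normalization, and the 73 falls became 39 after median-of-ratios scaling. Leaving out each library in turn gave 5 to 13 rises and 27 to 40 falls by 10 months, 7 to 8 and 77 to 80 from 2 to 20 months, 5 to 8 and 70 to 78 from 10 to 20 months, 90 to 93 members with any age difference and 0 isoforms. The replicate numbers as a block gave 8 rises and 32 falls, 8 and 79, and 7 and 73 in the 3 comparisons, 93 members with any age difference and 0 isoforms. Of 4482 values of named genes under the alternatives, 4222 kept their side of the threshold and, where called, their direction. A further 128 lost a call, 122 gained one and 10 called values changed sign. The sign changes after median-of-ratios scaling, as log2 changes from 10 to 20 months, were Fuca1 at 0.0658, Cd164 at 0.0198, Cd63 at 0.0524, Gga1 at 0.064, Hexa at 0.173, Lamp2 at 0.0261 and Rragc at 0.0804, and from 2 to 20 months Laptm4a at 0.0822. After quantile normalization they were Hexa at 0.0463 from 10 to 20 months and Ctsl at -0.0876 from 2 to 20 months. Sign changes of values not called as deposited, such as that of Npc2 from 2 to 20 months, are not among the 10. The cause was not tested, except that each scaling shifts all genes of a library alike or by rank. The depth allows no limit for members at 0, since the tables hold no counts.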
